A study of Mus musculus with 6 samples.

Results

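A set of 9 genes of the interferon response was followed in cerebellar RNA of wild-type (WT) and KIKO mice. It holds 3 guanylate-binding protein genes (*Gbp2*, *Gbp3* and *Gbp7*), the interferon regulatory factors *Irf1* and *Irf7*, and the interferon-induced genes *Ifit3*, *Ifitm3*, *Bst2* and *Isg15*, out of 31053 genes in the count table. The set was chosen by a measured value, the lower *Gbp2* level of KIKO in these same libraries, so the difference between genotypes in the 9 genes is given as a description, with no test. KIKO (knock-in knock-out) mice carry a knock-in allele opposite a knock-out allele, and they model Friedreich's ataxia, a neurodegenerative disease. The WT mice carry both intact alleles, and neither group is labelled with a treatment. There were 2 WT libraries (WT 1 and WT 2) and 3 KIKO libraries (KIKO 1, KIKO 2 and KIKO 3) of bulk polyA RNA. The labels give the cerebellum as the tissue and no age, sex or cell sorting, while the methods of the study describe CD45+/CD11b+ cells, the surface phenotype of microglia, taken from the cerebellum with magnetic beads. A WT sample numbered 3 in the labels was not analysed here.

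Interferons are cytokines, and those of type I are released by cells that sense viral or self nucleic acids. Type I interferons and interferon gamma bind different receptors, whose Janus kinases activate the STAT transcription factors. These factors then bind the interferon-stimulated response element (ISRE), together with IRF9, or the gamma-activated sequence (GAS) in the promoters of interferon-stimulated genes. In the brain, microglia, the resident macrophages, as well as endothelial cells and astrocytes, can carry this response.

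The libraries held between 1013107 and 1351339 counts, and 3 counts corresponded to a CPM (reads scaled to equal library size) between 2.22 and 2.96. Levels are given as normalized CPM, with the library size scaled by the trimmed mean of M-values (TMM). KIKO 2 stood apart. Across genes, its correlation with the other libraries (Pearson's r of log2(CPM + 1)) lay between 0.656 and 0.732, whereas that of the other libraries among themselves lay between 0.877 and 0.926. Fold changes of the 8 genes that passed the filter on low counts (all but *Bst2*) are therefore given with and without it. So are other differences named below whose sign turned without it. All 5 libraries held counts of *Xist* and 0 counts of 4 genes of the Y chromosome. Besides microglial markers, with a summed CPM between 4229 and 10640, the libraries held choroid plexus markers with a summed CPM between 6551 and 14020 and oligodendrocyte markers between 4006 and 16690.

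The promoter windows describe the 9 genes apart from their levels, and neither motif searched for was present in all 9. RefSeq windows on GRCm38.p6, from 250 bases before to 50 bases after the transcription start, were found for all 9 genes and searched on both strands for the ISRE core (GAAA, any 2 bases and GAAA again) and the GAS core (TTCNNNGAA, in which N is any base). These are different motifs, and a base can belong to a match of each. The ISRE core was present in 7 of 9 genes, against 1131 of 32851 mouse promoter windows (3.44%). The GAS core was present in 4 of 9 genes, against 2726 windows (8.3%). The 9 are counted by gene, in any of its windows (*Gbp3* and *Irf1* have 2 each), and the background by window. Since the set was named for the interferon response, nothing is read from these shares. A match of letters does not show that a factor binds there. The stretches around the matches before the start are printed here for the genes that have one, 5′ to 3′ on the strand of the gene, with the ISRE core in capitals (for *Irf1*, the GAS core). Read on the other strand, the ISRE core is TTTC, any 2 bases and TTTC again.
Gbp2, chr3:142620592-142620625, plus strand: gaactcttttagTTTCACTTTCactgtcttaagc
Gbp3, chr3:142559987-142560026, plus strand: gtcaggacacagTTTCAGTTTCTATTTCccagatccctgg
Gbp7, chr3:142530271-142530304, plus strand: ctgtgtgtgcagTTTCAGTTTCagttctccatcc
Irf1, chr11:53769912-53769944, plus strand: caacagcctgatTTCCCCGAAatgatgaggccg
Ifit3, chr19:34583361-34583428, plus strand: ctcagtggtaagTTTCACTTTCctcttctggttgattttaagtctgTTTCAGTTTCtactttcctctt
Bst2, chr8:71537575-71537614, minus strand: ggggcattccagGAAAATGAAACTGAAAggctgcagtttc
Isg15, chr4:156200863-156200908, minus strand: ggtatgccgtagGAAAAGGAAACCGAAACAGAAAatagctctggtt

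The 3 guanylate-binding protein genes carried the ISRE core close to the RefSeq start, from which all distances are counted. It began 59 bases before the start in *Gbp2*, 45 and 39 bases before it in *Gbp3*, where the matches overlap, and 53 bases before it in *Gbp7*. The RefSeq start lies 61 bases inside the GENCODE gene for *Gbp2* and 18 bases inside it for *Gbp3*, so the match of *Gbp2* falls just within the gene coordinates given for it here. The match of *Gbp3* at 45 bases and that of *Gbp7* have the same letters, those of the second match of *Ifit3*. *Isg15* held 3 overlapping matches, from 78 to 66 bases before the start, and *Bst2* held 2, at 130 and 124 bases. *Ifit3* held 2 matches, at 156 and 122 bases. *Irf1* had no ISRE core in its windows, and its GAS core began 90 bases before the start. *Gbp7* (at 106 and 87 bases) and *Bst2* (at 136 bases) had a GAS core as well, and those of *Ifitm3*, like its ISRE cores, lay after the start. *Irf7* had neither.

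**Figure D1:**
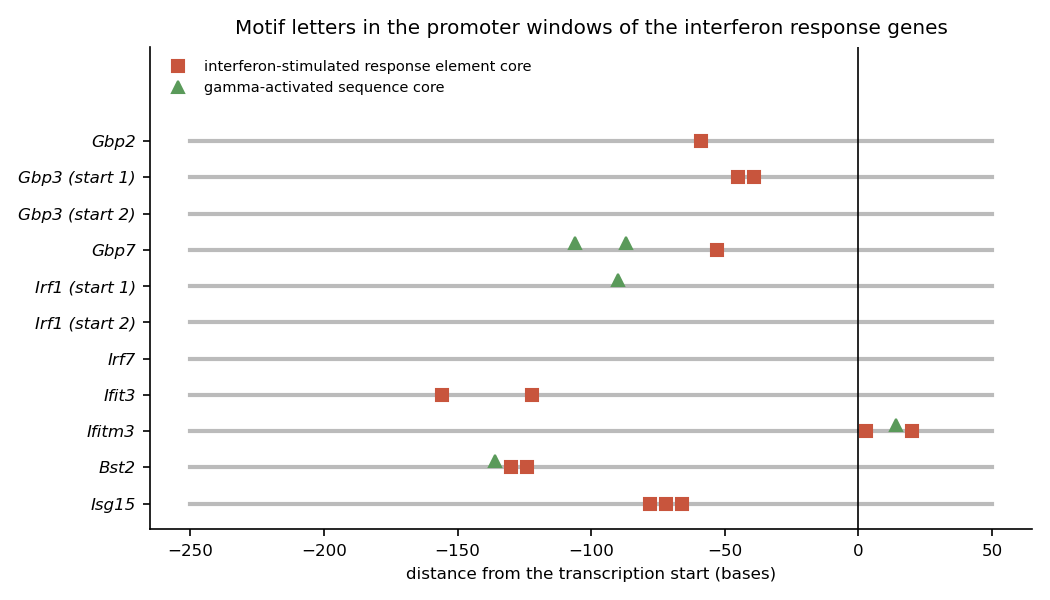
Matches of the ISRE core (squares) and of the GAS core (triangles) in the promoter windows of the 9 genes, by distance from the transcription start in bases (x axis, 0 at the start). *Gbp3* and *Irf1* have 2 windows each. The ISRE cores of *Gbp2*, *Gbp3* and *Gbp7* lie between 59 and 39 bases before the start, and *Irf7* has no match.

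The guanylate-binding proteins are large GTPases that assemble on the membranes of intracellular pathogens and their vacuoles. The genes *Gbp7*, *Gbp3* and *Gbp2* lie in this order in a cluster on chromosome 3 (GRCm38, plus strand), at chr3:142530342-142550149, chr3:142560026-142573209 and chr3:142620602-142638008, with *Gbp2b* between *Gbp3* and *Gbp2*. *Gbp2* (ENSMUSG00000028270) had a CPM of 18.72 in WT 1 and 13.48 in WT 2, and of 3.117, 1.524 and 7.016 in KIKO 1, KIKO 2 and KIKO 3. Both WT libraries were above all 3 KIKO libraries. The WT mean was 16.1 ± 3.71 (SD, n = 2) against a KIKO mean of 3.885 ± 2.83 (SD, n = 3), a log2 fold change (KIKO minus WT) of -2.05 with a standard error (SE) of 0.88.

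These levels rest on few reads, 19 and 18 counts in WT and 4, 2 and 7 counts in KIKO. The 95% Poisson intervals of the CPM were 11.3 to 29.2 in WT 1, 7.99 to 21.3 in WT 2 and 2.82 to 14.5 in KIKO 3, so that of KIKO 3 overlapped both WT intervals. These intervals cover counting error only, not differences between libraries. Reads made by polymerase chain reaction are not independent molecules, so the intervals may be too narrow even for counting error. Without KIKO 2, the KIKO mean was 5.066 ± 2.76 (SD, n = 2) and the log2 fold change -1.68 (SE 0.76).

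*Gbp3* (ENSMUSG00000028268) did not follow *Gbp2*. It had a CPM of 6.899 and 25.47 in WT 1 and WT 2, and of 15.58, 59.43 and 8.018 in KIKO 1, KIKO 2 and KIKO 3. The groups overlapped, and the highest value of each was in library 2. The log2 fold change was 0.76 (SE 0.92) with all libraries and -0.47 (SE 0.65) without KIKO 2, so its sign rested on that library.

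*Gbp7* (ENSMUSG00000040253) had a CPM of 40.41 and 62.92 in WT, and of 14.8, 62.47 and 29.07 in KIKO. KIKO 1 and KIKO 3 were below both WT libraries, whereas KIKO 2 was level with WT 2. The log2 fold change was -0.54 (SE 0.61), and -1.27 (SE 0.43) without KIKO 2. Of the 75-base stretches of the *Gbp7* transcripts, 11.3% also occur in *Gm43802*, a gene on the same strand that overlaps its exons, or in *Gbp3*, so its counts are less certain than those of *Gbp2* (0.955%, with *Gbp2b*) and *Gbp3* (2.06%, with *Gbp7*).

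Of the 9 genes, 8 passed the filter on low counts and *Bst2* did not. *Gbp2*, whose lower level in KIKO chose the set and which passed the filter through its WT counts, was the only one of the 8 past the thresholds of the study. They are a log2 fold change above 0.75 in size with an unadjusted p under 0.05, and 1.20% of all 10889 genes tested passed (0.487% lower and 0.716% higher in KIKO). Because the choice of the set used this contrast, nothing is read from this count. *Gbp2* was also the only one whose groups did not overlap, as in 16.7% of all genes (8.54% with WT above KIKO). No gene in the whole table had an adjusted p under 0.05 (edgeR's quasi-likelihood test, 0.00%), whereas 131 had an unadjusted p under 0.05. *Gbp2* was no longer past the thresholds without WT 1 (-1.80), without WT 2 (-2.27), without KIKO 1 (-1.92) or with the replicate number as a block (-2.78).

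**Figure D2:**
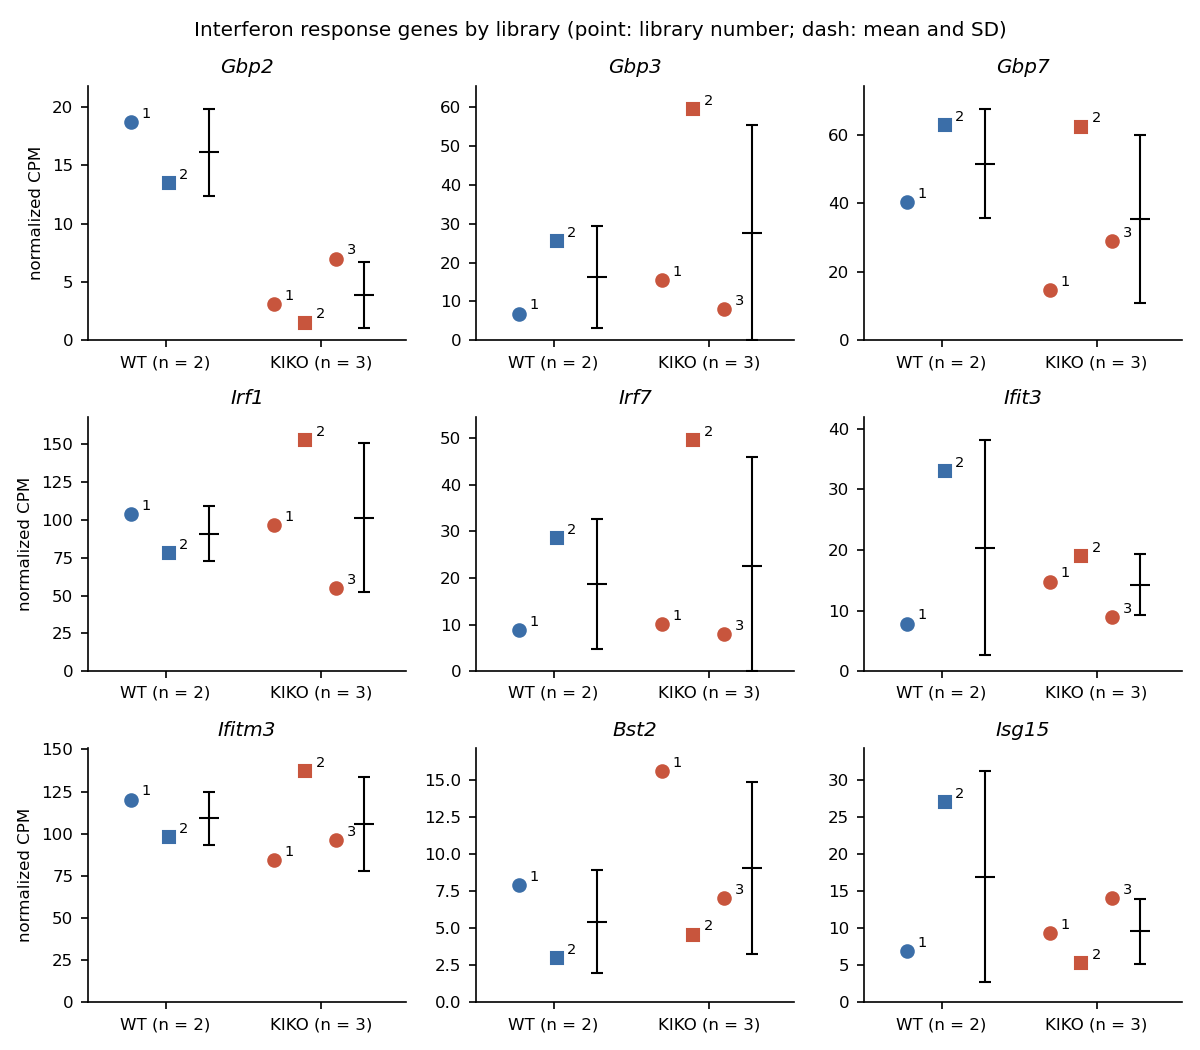
Normalized CPM (y axes, each from 0) of the 9 genes in the 2 WT libraries (blue) and the 3 KIKO libraries (red), numbered by replicate, with library 2 as a square. Black dashes and bars are the mean and SD of each group, with bars ending at 0 where the SD is larger than the mean. *Gbp2* is the only gene with all KIKO libraries below both WT libraries, and *Gbp3* and *Irf7* are highest in WT 2 and KIKO 2.

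The means of both transcription factors differed between the genotypes by less than the SD of KIKO. *Irf1* (ENSMUSG00000018899, chr11:53770014-53778374), an early factor of the interferon response, had a CPM of 103.5 and 77.9 in WT, and of 96.62, 152.4 and 55.12 in KIKO. The KIKO libraries lay on both sides of the WT libraries, and the log2 fold change was 0.17 (SE 0.48), or -0.24 (SE 0.32) without KIKO 2.

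*Irf7* (ENSMUSG00000025498, chr7:141262706-141266481), which drives the transcription of type I interferons, had a CPM of 8.87 and 28.46 in WT, and of 10.13, 49.52 and 8.018 in KIKO. As in *Gbp3*, WT 2 and KIKO 2 were high and the other 3 libraries low. The log2 fold change was 0.27 (SE 0.90), and it was -1.06 (SE 0.65) without KIKO 2. Exons of *Irf7* overlap *Phrf1* on the other strand and those of *Irf1* overlap *Gm17334*, and the strand setting of the counting is not given in the sources used here, so reads of these pairs may not be told apart.

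Among the effectors, *Ifit3* (ENSMUSG00000074896, chr19:34583531-34588731), a partner of IFIT1 in the recognition of viral RNA, had a CPM of 7.884 and 32.96 in WT, and of 14.8, 19.05 and 9.02 in KIKO. WT 1 and WT 2 were the lowest and the highest of all 5 libraries, and the KIKO libraries lay between them. The log2 fold change was -0.52 (SE 0.73), and it was -0.79 without KIKO 2 and 0.84 without WT 2. *Ifit3* shares 41.1% of its 75-base stretches with *Ifit3b*, so the split of reads between these genes is uncertain.

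*Isg15* (ENSMUSG00000035692, chr4:156199424-156200818), a ubiquitin-like protein that is joined to other proteins, had a CPM of 6.899 and 26.97 in WT, and of 9.35, 5.333 and 14.03 in KIKO. WT 2 was the highest library and WT 1 lay among the KIKO libraries. The log2 fold change was -0.84 (SE 0.80), and it was -0.59 without KIKO 2 and 0.45 without WT 2. In *Isg15*, unlike *Gbp3* and *Irf7*, KIKO 2 was the lowest library.

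*Ifitm3* (ENSMUSG00000025492, chr7:141009586-141010770), which blocks the entry of viruses at endosomal membranes, had a CPM of 120.2 and 98.13 in WT, and of 84.15, 137.1 and 96.22 in KIKO. The groups overlapped, with means of 109.2 ± 15.6 (SD, n = 2) and 105.8 ± 27.8 (SD, n = 3). The log2 fold change was -0.04 (SE 0.38), and it was -0.28 without KIKO 2 and 0.02 with scaling by library size alone.

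*Bst2* (ENSMUSG00000046718, chr8:71534255-71537456), or tetherin, which holds budding virus particles at the cell surface, had 8 and 4 counts in WT and 20, 6 and 7 counts in KIKO. This was a CPM of 7.884 and 2.996 against 15.58, 4.571 and 7.016, with overlapping groups. Its highest library was KIKO 1, in which none of the other 8 genes was at its highest.

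**Figure D3:**
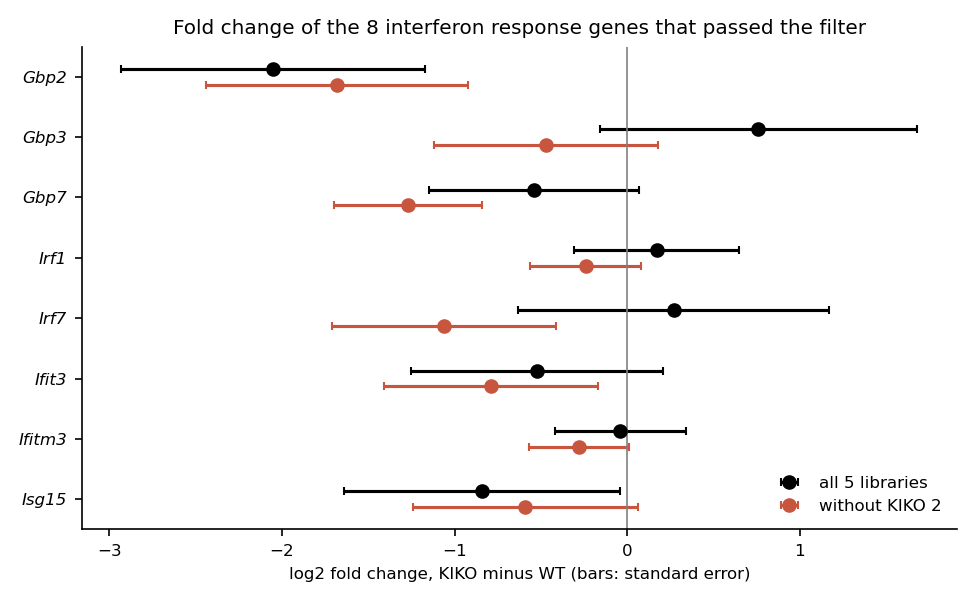
Log2 fold change (KIKO minus WT, x axis) of the 8 genes that passed the filter, with all 5 libraries (black) and without KIKO 2 (red). Bars are standard errors. Values run from -2.05 to 0.76 with all libraries, and *Gbp3*, *Irf1* and *Irf7* change sign without KIKO 2.

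With all libraries, 5 of the 8 genes had a log2 fold change below 0 and 3 were above it. Without KIKO 2, all 8 were below 0, with a median of -0.69, against -0.01 over all genes tested. *Gbp2* and *Gbp7* were then past the thresholds, as were 6.45% of the 10373 genes tested in this fit (3.51% lower in KIKO). The 8 genes include *Gbp2*, whose level in these libraries chose the set, so nothing is read from these counts either. Per kilobase of exon, the mean CPM over the 5 libraries was highest for *Ifitm3* (158 ± 31.3, SD, n = 5), followed by *Irf1* (24.4 ± 9.09) and *Isg15* (16.6 ± 11.5). It was lowest for *Gbp2* (3.49 ± 2.87), next to *Irf7* (5.56 ± 4.78), and the other 4 genes lay between 7.07 and 9.59. Apart from the gap below *Ifitm3*, neighbours in this order differed by less than the larger of their SDs. This scale takes reads to come from the whole transcript, which the labels (a stranded kit) and the methods of the study (a digital mRNA service) do not settle.

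The spread within a genotype was wide in these genes. WT 2 was at least 2-fold above WT 1 in *Gbp3* (3.69-fold), *Irf7* (3.21-fold), *Ifit3* (4.18-fold) and *Isg15* (3.91-fold), or 4 of the 8 genes. This held in 12.6% of all genes tested and in 17.2% of 87 other interferon pathway genes, described below. The 4 genes had only 7 to 9 counts each in WT 1, and the share of all genes is not matched for low counts. *Gbp2*, *Irf1* and *Ifitm3* were lower in WT 2 than in WT 1. In KIKO, the highest library was KIKO 2 in 6 of the 8 genes, against 41.6% of all genes and 56.3% of the 87 other pathway genes. Both orders held in *Gbp3*, *Gbp7*, *Irf7* and *Ifit3*, with WT 2 above WT 1 by any amount, and in 26.0% of all genes. Between the highest and the lowest KIKO library, the ratio was 7.41 in *Gbp3*, 6.18 in *Irf7*, 4.6 in *Gbp2* and 4.22 in *Gbp7*, and it was smallest, 1.63, in *Ifitm3*.

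Markers of several cell types had the same order of libraries. The summed CPM of 7 of 12 marker lists was higher in WT 2 than in WT 1 and, within KIKO, highest in KIKO 2. Endothelial markers summed to 428.7 and 809.7 in WT and to 459.7, 763.4 and 461 in KIKO. Microglial markers summed to 4824 and 6044 in WT and to 4229, 10640 and 5003 in KIKO, and oligodendrocyte markers to 4691 and 10400 in WT and to 4006, 16690 and 4823 in KIKO. The part of these differences in the levels of the interferon genes was not tested, and in bulk RNA fewer cells of a type cannot be told apart from less RNA per cell. Markers of T, B and NK cells summed to at most 3.75 CPM, with *Cd3e*, *Cd8a* and *Cd79a* at 0 in all libraries. Those of monocytes and neutrophils summed to 16.75 and 26.97 in WT and to 91.16, 32 and 35.08 in KIKO, so all 3 KIKO libraries were above both WT libraries. Of all genes tested, 8.14% had this order. The sum was mostly *S100a8* and *S100a9*, and neither gene alone separated the groups. *S100a8* was lower in KIKO 3 (13.03) than in WT 2 (15.73), and *S100a9* was lower in KIKO 2 (9.143) than in WT 1 (10.84). *Ly6c2* and *Plac8* were at 0 in all libraries, and the part of this sum in the levels of the 9 genes was not tested.

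**Figure D4:**
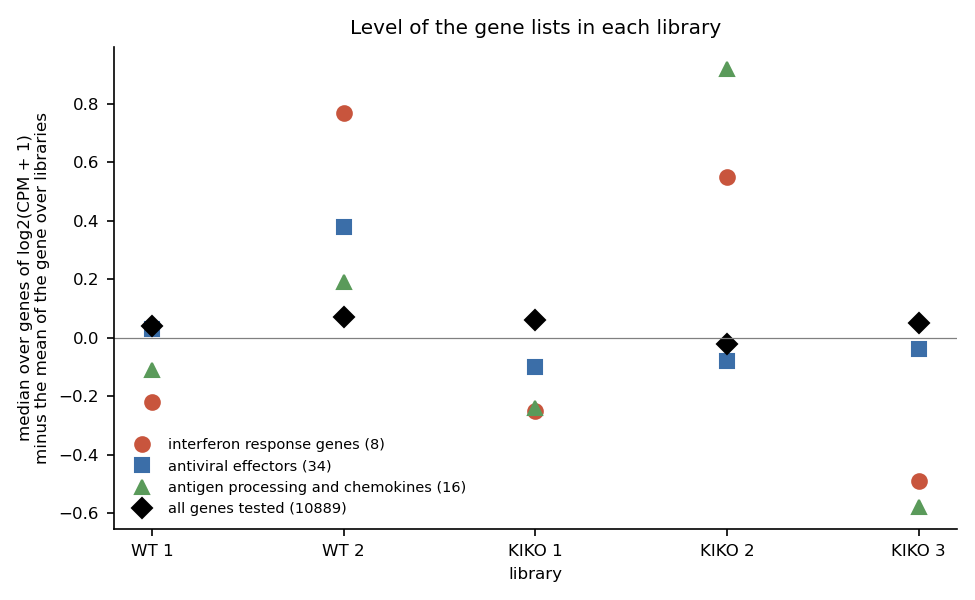
Median over genes of log2(CPM + 1), each gene centred on its mean over the 5 libraries (y axis), in each library (x axis) for 4 sets of genes, with the number of genes in brackets. The interferon response genes lie at 0.77 in WT 2 and 0.55 in KIKO 2 and between -0.49 and -0.22 in the other 3 libraries, while the median of all genes stays between -0.02 and 0.07.

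Genes with the profile of *Gbp2* were looked for among the other 10888 genes tested, by the root mean square difference of log2(CPM + 1) centred over the 5 libraries. The nearest were *E130309D02Rik* (0.20), *Cryl1* (0.21), *Grasp* (0.22), *Slx4* (0.25) and *4921524J17Rik* (0.28). *Cryl1*, for example, had a CPM of 29.57 and 25.47 in WT and of 7.792, 3.809 and 18.04 in KIKO, in the same order of libraries as *Gbp2*. The nearest gene of the set was *Isg15*, at rank 2887. *Irf7* and *Gbp3* were at ranks 10213 and 10622, with differences of 1.77 and 1.98. This difference also grows with how strongly a gene varies between libraries. A gene that hardly varies can thus rank ahead of one that varies strongly, without sharing the profile of *Gbp2*. The *Gbp2* levels are also those that chose the set, so nothing is read from these ranks.

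The rest of the interferon pathway was described with 6 lists of 135 other genes. Of these, 132 had a count table entry and 87 passed the filter, of which 46 were below 0 and 41 above, with a median log2 fold change of -0.05 (0.02 over all genes). *Trim30a* was the only one past the thresholds (1.15%, against 1.20% of all genes). Without KIKO 2, 5 of 81 were past them (6.17%, against 6.45%), all lower in KIKO, 59 were below 0 and 22 above, and the median was -0.30. Those 5 were *Trim30a*, *Rsad2*, *Tmem173*, *Ifngr2* and *Parp12*.

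Of the ligands, *Ifnb1* had 0 counts in every library, which allows a CPM of up to 2.96, and *Ifng* had 7 counts in KIKO 2 and 0 in the other 4 libraries. Both genes were looked at after their values were seen. Of the 15 tested genes for receptors, Janus kinases, STATs and their feedback, 7 were below 0 and 8 above, and 0 passed the thresholds. Without KIKO 2, 7 of 14 were below 0 and 7 above, and *Ifngr2* was past the thresholds (-1.13). The most abundant were the kinase gene *Jak1* (log2 fold change 0.01, SE 0.35), *Socs3*, which restrains cytokine signalling (0.35, SE 0.70, but -0.65 without KIKO 2), and *Stat2* (-0.21, SE 0.36). *Socs3* was high in KIKO 2, at a CPM of 317.7, against between 49.11 and 151.8 in the other libraries.

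Of the other IRFs and the IRF2-binding proteins, 7 genes in all, 6 were below 0 and 0 passed the thresholds. *Irf8*, a factor of microglial identity, had a log2 fold change of -0.08 (SE 0.36), *Irf2* of -0.31 (SE 0.49), and the IRF2 partner *Irf2bp2* of 0.10 (SE 0.50). Without KIKO 2, the sign turned in *Irf2* (0.04) and *Irf2bp2* (-0.43). Only 3 other genes of the guanylate-binding and immunity-related GTPases passed the filter, *Irgm2* (0.03, SE 1.05, but -1.44 without KIKO 2), *Igtp* (-1.05, SE 1.18) and *Iigp1* (-0.31, SE 0.96), and 0 of them passed the thresholds. *Igtp* had 0 counts in KIKO 2, where *Irgm2* was highest. The log2 fold change of *Igtp* was -0.48 without KIKO 2.

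Of the 34 antiviral effectors tested, 21 were below 0 and 13 above, with a median of -0.14. Without KIKO 2, 21 were below 0 and 11 above, with a median of -0.31, and 3 were past the thresholds, all lower in KIKO. In 8 of the 34 effectors both WT libraries were above all KIKO libraries (8.54% of all genes), and in 1 both were below (8.14% of all genes). *Trim30a* (ENSMUSG00000030921, chr7:104409025-104465193), a TRIM protein that restrains Toll-like receptor signalling, had a CPM of 42.38 and 83.89 in WT, and of 27.27, 12.95 and 37.08 in KIKO. The KIKO libraries were all below WT 1, with a log2 fold change of -1.30 (SE 0.55) and an unadjusted p of 0.0443 (adjusted p = 1, edgeR's quasi-likelihood test). It was no longer past the thresholds without WT 2 (-0.73) or without KIKO 1 (-1.35), and 4.98% of its 75-base stretches occur in *Trim30d*.

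The most abundant effectors were *Ly6e* (log2 fold change -0.05, SE 0.37, but 0.14 without KIKO 2), *Ifi27* (-0.63, SE 0.34) and *Samhd1*, which breaks down deoxynucleotides (0.09, SE 0.36). *Ifi27* had a CPM of 123.2 and 132.6 in WT, and of 82.59, 93.71 and 71.16 in KIKO, so its groups did not overlap, but its unadjusted p was 0.104 (adjusted p = 1, edgeR).

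Of the 12 nucleic acid sensors and adaptors, 4 were below 0 and 8 above, with 0 past the thresholds. The balance turned without KIKO 2, with 9 of 11 below 0 and *Tmem173* past the thresholds (-1.03). *Traf3*, an adaptor of interferon induction, had a log2 fold change of 0.63 (SE 0.67, but -0.33 without KIKO 2), *Tlr7*, a sensor of single-stranded RNA, of 0.12 (SE 0.46, but -0.12 without KIKO 2), and *Tmem173*, which encodes STING, of -0.80 (SE 0.52). Of the 16 genes of antigen processing and chemokines, 10 were above 0 and 6 below, with a median of 0.36 and 0 past the thresholds. Without KIKO 2, 13 of 14 were below 0, with a median of -0.35. *B2m*, the invariant chain of class I molecules, had a CPM of 1229 and 1245 in WT and of 1074, 2558 and 1047 in KIKO. Its log2 fold change was 0.34 (SE 0.52), but -0.23 without KIKO 2. *H2-D1* (-0.12, SE 0.50, and -0.67 without KIKO 2) and *H2-K1* (0.19, SE 0.49, but -0.37 without KIKO 2) also had their highest level in KIKO 2. In KIKO 2, the median of this list stood at 0.92 above the mean of its genes over libraries, against 0.55 for the 8 interferon response genes and -0.08 for the antiviral effectors.

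**Figure D5:**
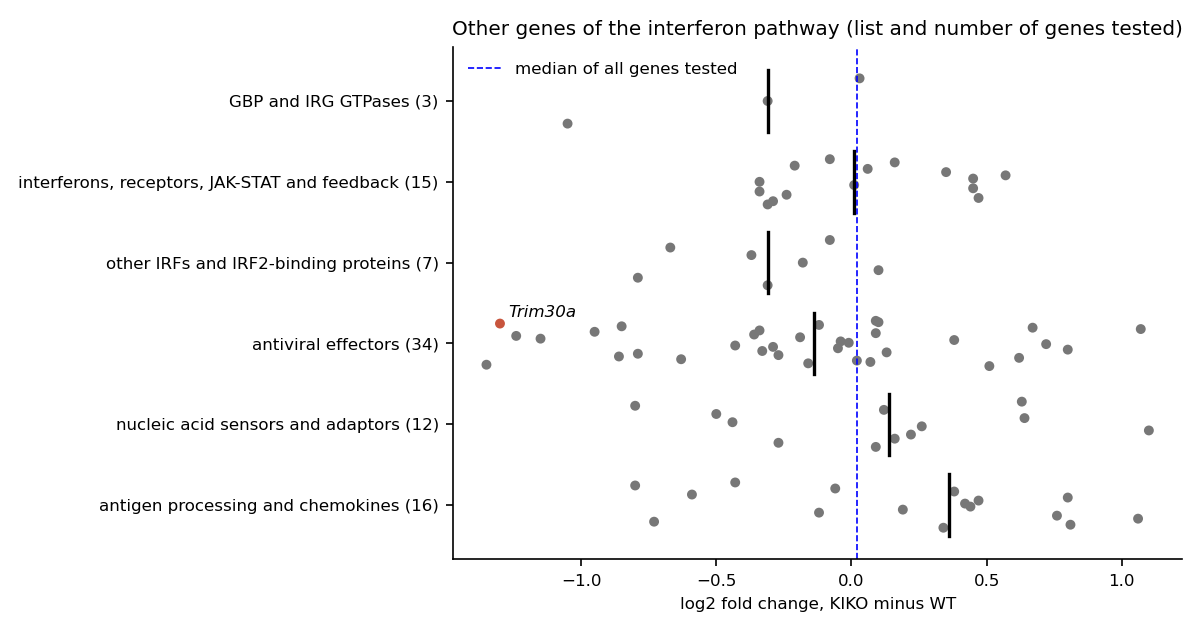
Log2 fold change (KIKO minus WT, x axis) of each tested gene of the 6 other lists of the interferon pathway (y axis, number of genes tested in brackets). Black bars are list medians, the dashed line is the median of all genes tested (0.02), and red marks *Trim30a*, the 1 gene past the thresholds. List medians run from -0.31 to 0.36.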

How the data were processed

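RNA sequencing counts of 5 of the 6 labelled samples were used. A WT sample numbered 3 was not analysed here, and 2 further columns of per-sample values match no sample label and were not used. Some results are not reported here. The authors deposited raw whole-number counts of reads per gene, made with Trimmomatic (trimming), HISAT2 (alignment to mm10) and featureCounts. The annotation, strand setting and handling of multiply mapped reads are not given in the sources used here. Log2 values normalized with DESeq2, also deposited, were not used.

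Gene names came from GENCODE M21 (GRCm38). Genes were kept by filterByExpr (minimum count 10, minimum total 15), libraries were scaled by TMM, and KIKO was compared with WT by the two-sided quasi-likelihood test of edgeR 4.0.16 in R 4.3.3, with Benjamini-Hochberg adjustment over the 10889 genes. SEs come from its F statistics. The thresholds follow the study. The design assumed all 6 samples, so the fit became 2 against 3. The 9 genes and all lists were chosen with earlier results of these data known. Named besides the 9 are, per list, up to 4 genes past the thresholds in each direction and the 3 of highest mean CPM, the 5 nearest to *Gbp2* in profile, and markers beside a result. *Rsad2*, *Ifngr2*, *Parp12*, *Ifng* and *Ifnb1* were added after their values were seen. Nothing in the labels says that the libraries came from separate mice, so p-values measure the spread between these samples. Alternatives were RLE factors, library size alone, DESeq2 1.42.0, other filters, a replicate block, limma 3.58.1 voom with sample weights, and leaving out each library.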

Additional observations from a re-analysis of the deposited data

How the results depend on the processing

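With all libraries, 131 genes passed the thresholds, 78 higher and 53 lower in KIKO. The split was 94 higher and 43 lower with library size alone and 96 higher and 40 lower with DESeq2. The count moved to 383 (256 higher, 127 lower) when every gene with 1 or more counts was kept, to 519 (203 higher, 316 lower) with voom and sample weights (0.163 for KIKO 2, 1.19 to 2.28 for the others), and to between 56 (without WT 1) and 669 (305 higher, 364 lower, without KIKO 2) on leaving out a library. At an adjusted p under 0.05, the count of 0 became 1 with all genes of at least 1 count, and lay between 0 and 5 (without KIKO 2) on leaving out a library. The other interferon pathway genes past the thresholds, 1 with all libraries, were 4 with all genes of at least 1 count, 4 with voom, and between 0 (without WT 2) and 5 (without KIKO 2) on leaving out a library. With a replicate block, which leaves 1 residual degree of freedom, 271 genes (109 higher, 162 lower) and 4 pathway genes passed. The labels give no pairing beyond the number, and with only 2 pairs (r of deviations 0.17 and 0.225) the pairing was not settled. Signs turned for *Ifitm3* with library size alone (0.02), and for *Gbp3* (-0.17), *Irf1* (-0.19) and *Irf7* (-0.76) with voom. On leaving out a library, log2 fold changes ran from -0.47 to 1.97 for *Gbp3*, -0.24 to 0.46 for *Irf1*, -1.06 to 1.32 for *Irf7*, -1.20 to 0.84 for *Ifit3*, -0.28 to 0.10 for *Ifitm3*, -1.50 to 0.45 for *Isg15*, -1.27 (without KIKO 2) to -0.17 (without KIKO 1) for *Gbp7* and -2.74 to -1.68 for *Gbp2*. The last 2 kept their sign in every fit. *Gbp2* could not be fitted with at least 10 counts in every library. Leaving out a WT library leaves 1, assumed to vary as the others do. No cause of these differences between settings was tested.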
